A study of Mus musculus with 16 samples.

Results

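The 10 genes described here encode the mTOR kinase, the scaffolds of its 2 complexes, and proteins that hold mTOR signalling down under stress. They were taken from the deposited table by symbol, as a set chosen with earlier results of these data known, as Mtor, Rptor, Rictor, Deptor, Ddit4, Ddit4l, Sesn1, Sesn2, Sesn3, and Eif4ebp1, and are 10 of 21923 genes. Poly(A) RNA of gastrocnemius, a calf muscle, was sequenced for 16 adult mice with 1 library per mouse, in 4 groups of 4 mice called NOR, CAC, AM, and KD. NOR mice were injected with PBS and carried no tumor. CAC mice, which develop cancer cachexia (the wasting of muscle and fat that accompanies a tumor), carried a subcutaneous tumor and were injected daily with PBS, the vehicle of amiloride, from day 9, as the NOR and KD mice were. AM mice carried such a tumor and were instead given daily amiloride, a blocker of sodium channels and sodium-proton exchange, at 2 mg/kg from day 9. KD mice carried a tumor of cells in which Rab27a and Rab27b, genes of exosome release, were knocked down with shRNA, so that the knock-down is in the tumor and not in the muscle. In every group replicates 1 and 2 are labelled C57BL/6, the host of LLC lung carcinoma cells, and replicates 3 and 4 BALB/c (spelled BABL/c in the strain label), the host of CT26 colon carcinoma cells. Strain and tumor line therefore cannot be told apart. The C57BL/6 mice were male and the BALB/c mice male and female per the protocol in the labels, and muscles were taken on day 30.

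mTOR is a protein kinase that joins nutrient, insulin, and energy signals to protein synthesis and autophagy, and in skeletal muscle its activity favours growth of the fibres. Bound to raptor (Rptor) it forms mTORC1, and bound to rictor (Rictor) it forms mTORC2. DEPTOR binds the kinase inside both complexes and inhibits it. REDD1 (Ddit4) and its paralog REDD2 (Ddit4l) inhibit mTORC1 through the TSC complex and are known to be induced by hypoxia, glucocorticoids, and DNA damage (REDD1) or to be enriched in muscle (REDD2). The sestrins (Sesn1 to Sesn3) inhibit mTORC1 through the GATOR amino acid sensing complexes. 4E-BP1 (Eif4ebp1) binds the cap-binding factor eIF4E and blocks translation until mTORC1 phosphorylates it. Transcript levels carry no information on this phosphorylation or on kinase activity.

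The libraries held 35913190 to 61032708 counted reads, and the lowest count of any of the 10 genes in any library was 261 (Sesn2). Expression is given as TMM-normalized CPM, which are counts relative to the library total, scaled for library composition, with the mean ± SD over 4 mice. A gene was called a DEG at a Benjamini-Hochberg FDR of at most 0.05 in edgeR's quasi-likelihood test over all genes tested together with a fold change of at least 1.5 in either direction. CPM of single genes were also compared by exact permutation (two-sided), for which 0.0286 is the smallest p that groups of 4 allow. All 6 muscle fibre marker genes, among them Acta1, Ckm, and Myh4, were detected in all 16 libraries. In bulk RNA, fewer cells of a type and less RNA per cell cannot be told apart.

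Per transcript length, as FPKM averaged over the 16 libraries, the small inhibitors were the most abundant of the 10 genes, with 125 for Ddit4l, 84.4 for Ddit4, and 77.1 for Eif4ebp1. The mean FPKM was 22.7 for Sesn1, 19.5 for Deptor, 18.7 for Rptor, and 15.5 for Mtor. The least abundant were Sesn3 at 7.74, Rictor at 3.07, and Sesn2 at 2.29 FPKM. The authors used 1 length per gene, and for some genes it was shorter than the longest transcript. With the longest transcript of GENCODE M21 for every gene, Ddit4l (74.2 CPM per kb) ranked after Ddit4 (84.3) and Eif4ebp1 (74.5), and the order of the other 7 genes was the same. Stability across mice also differed, since CPM of Ddit4 varied 23.9-fold between the lowest and the highest library but CPM of Rictor only 1.35-fold and of Rptor 1.49-fold.

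In cachectic muscle (CAC vs. NOR), 3 of the 10 genes were upregulated, namely Eif4ebp1, Ddit4, and Sesn1, which encode inhibitors of mTORC1 or of translation, and none was downregulated. The kinase and its scaffolds were not DEGs. Over all 14666 genes tested, 9.45% were DEGs and 4.32% were upregulated ones. The CAC and NOR mice did not overlap for 5 of the 10 genes (the 3 DEGs, Mtor, and Sesn3), and did not overlap for 22.8% of all genes. An unadjusted p under 0.05 in edgeR was reached by 6 of the 10 genes and by 29.1% of all genes. The median absolute log2 fold change was 0.50 over the 10 genes and 0.27 over all genes. Eif4ebp1 and Sesn1 are also in the atrophy gene list that the study drew from these same samples, which is not independent evidence of their direction.

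Eif4ebp1 (ENSMUSG00000031490, chr8:27260329-27276674, plus strand, GRCm38) had the largest log2 fold change of the 10 genes. Its CPM was 66.5, 58.9, 55.8, and 84.5 in NOR replicates 1 to 4. In CAC replicates 1 to 4 it was 271, 247, 448, and 436. Every CAC mouse was far above every NOR mouse, and within CAC the BALB/c mice with CT26 tumors stood above the C57BL/6 mice with LLC tumors. The mean rose from 66.4 ± 12.8 to 350 ± 106 CPM (n = 4 each), a log2 fold change of 2.40 (SE 0.24, FDR 0.00214 by edgeR), with an exact permutation p of 0.0286. Of the 31-base words of its exons, 7.2% also occur in other genes, mainly Gm14143, so that a small share of its reads may be assigned to the copy.

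Ddit4 (ENSMUSG00000020108, chr10:59949669-59951834, minus strand), the gene of REDD1, rose by a similar factor and varied more among the NOR mice. Its CPM was 47.9, 16.8, 54.3, and 127 in NOR replicates 1 to 4. CAC replicates 1 to 4 held 402, 289, 258, and 329 CPM. The groups did not overlap, although NOR replicate 4 was far above NOR replicate 2. The mean rose from 61.6 ± 46.8 to 319 ± 62.3 CPM (n = 4 each), a log2 fold change of 2.37 (SE 0.53, FDR 0.0226 by edgeR, exact permutation p = 0.0286). The call was lost without CAC replicate 1 (log2 fold change 2.24, FDR 0.0551), NOR replicate 1 (2.27, FDR 0.0602), or NOR replicate 3 (2.32, FDR 0.0710), and with all 16 libraries in 1 fit (2.37, FDR 0.0533).

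Sesn1 (ENSMUSG00000038332, chr10:41809935-41908424, plus strand), the gene of sestrin 1, was the third DEG. Its CPM was 42.6, 35.9, 42.0, and 54.9 in NOR replicates 1 to 4. In CAC replicates 1 to 4 it was 130, 101, 134, and 198. Each CAC value was above the highest NOR value, and CAC replicate 4 was the highest. The mean rose from 43.9 ± 7.97 to 141 ± 41.1 CPM (n = 4 each), with a log2 fold change of 1.68 (SE 0.22, FDR 0.00403 by edgeR, exact permutation p = 0.0286).

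**Figure D1:**
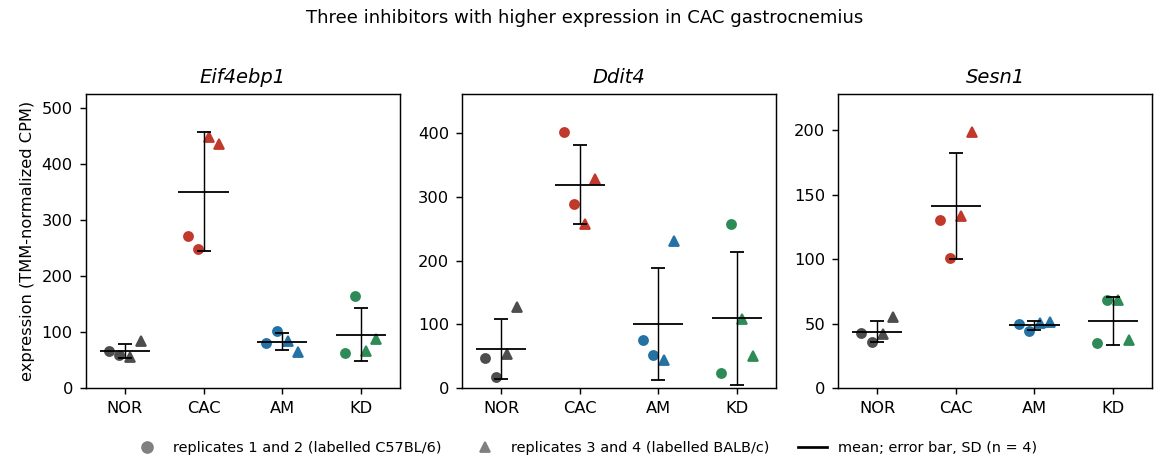
TMM-normalized CPM (linear axis from 0) of Eif4ebp1, Ddit4, and Sesn1 in each mouse of the 4 groups. Points are mice, with circles for C57BL/6 and triangles for BALB/c labels, and lines and error bars are the mean and SD (n = 4). The CAC mice stand above all mice of the other 3 groups for Eif4ebp1 (247 CPM or more) and Sesn1 (101 CPM or more), and narrowly for Ddit4 (KD replicate 2, 258 CPM).

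Ddit4 and Sesn1 lie on the same chromosome, and their upstream sequences are shown because they are the DEGs for which RefSeq gives a promoter (8 of the 10 genes had an entry, all but Deptor and Eif4ebp1). The windows searched are the 250 bases before the RefSeq start on GRCm38.p6, read 5′ to 3′ on the strand of the gene. The Ddit4, Sesn2, and Rictor windows run into the first exon of GENCODE M21. The Ddit4 sequence is therefore printed up to that exon, which leaves 186 bases, chr10:59951835-59952020 on the minus strand. For Sesn1 the start of the shorter transcript is shown, chr10:41887189-41887438 on the plus strand, since the window of its other RefSeq start lies wholly in an annotated exon of Sesn1. Capitals mark letters of a CCAAT box on the opposite strand (ATTGG) or of the core of a hypoxia response element (ACGTG).
Ddit4 upstream: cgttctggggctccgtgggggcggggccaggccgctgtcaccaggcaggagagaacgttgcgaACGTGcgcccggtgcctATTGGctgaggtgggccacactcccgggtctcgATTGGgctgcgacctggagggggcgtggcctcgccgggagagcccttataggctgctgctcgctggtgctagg
Sesn1 upstream: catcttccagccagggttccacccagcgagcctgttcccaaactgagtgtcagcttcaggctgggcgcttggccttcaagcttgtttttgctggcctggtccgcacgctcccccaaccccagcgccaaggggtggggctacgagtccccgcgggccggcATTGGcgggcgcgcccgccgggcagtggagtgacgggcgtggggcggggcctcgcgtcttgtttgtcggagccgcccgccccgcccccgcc
The Ddit4 window holds 2 CCAAT boxes and 1 hypoxia core, and the Sesn1 window 1 CCAAT box. Of 32851 RefSeq promoter windows of 250 bases, 33.8% hold CCAAT and 16.6% hold ACGTG on either strand. A further 6 motifs were searched on both strands: the full palindromic glucocorticoid response element (0.00913% of all windows), the FoxO site GTAAACA (3.17%), the ATF4 C/EBP response element TGATGNAA (3.45%), the C/EBP site TTGCNNAA (9.56%), the STAT site TTCNNNGAA (7.02%), and the p53 half-site pair (0.0639%). None of these letters is in the windows of Ddit4, Ddit4l, Sesn1, Sesn2, Sesn3, Rptor, or Rictor. The Mtor window holds a STAT site 220 to 228 bases before its start and 4 CCAAT boxes. These are matches of letters in 1 window, not binding sites.

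The paralogs of Ddit4 and Sesn1 were not DEGs. Ddit4l (ENSMUSG00000046818, chr3:137621612-137628333, plus strand), the gene of REDD2, had CPM of 326, 442, 186, and 148 in NOR replicates 1 to 4. It had CPM of 144, 154, 67.2, and 64.9 in CAC replicates 1 to 4. Within each labelled strain both CAC mice were below both NOR mice, while the C57BL/6 CAC mice overlapped the BALB/c NOR mice. The log2 fold change was -1.36 (SE 0.43), from 276 ± 135 to 108 ± 48.3 CPM (n = 4 each), with an FDR of 0.0693 by edgeR and an exact permutation p of 0.0571, so Ddit4l was not a DEG. With the labelled strain as a covariate the log2 fold change was -1.35 and the FDR 0.00220, with DESeq2 the FDR was 0.00619, and with all 16 libraries in 1 fit it was 0.0346.

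Sesn3 (ENSMUSG00000032009, chr9:14275067-14333101, plus strand), the gene of sestrin 3, held 37.4, 38.8, 35.7, and 36.7 CPM in NOR replicates 1 to 4. The CAC replicates held 20.1, 25.2, 34.6, and 21.1 CPM. All CAC mice were below all NOR mice, with CAC replicate 3 only just so. The log2 fold change was -0.56 (SE 0.17), with an FDR of 0.0622 by edgeR. Without CAC replicate 3 it was -0.73 with an FDR of 0.00807, which makes Sesn3 a DEG, and limma-voom gave -0.59 with an FDR of 0.0457. Sesn2 (ENSMUSG00000028893, chr4:132492032-132510501, minus strand), the gene of sestrin 2, was scarce in every group, with 7.22 ± 1.75 CPM in NOR and 8.17 ± 0.84 CPM in CAC (n = 4 each, log2 fold change 0.18, SE 0.19, FDR 0.609 by edgeR). Sesn1 was therefore the only DEG of the 3 sestrin genes.

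**Figure D2:**
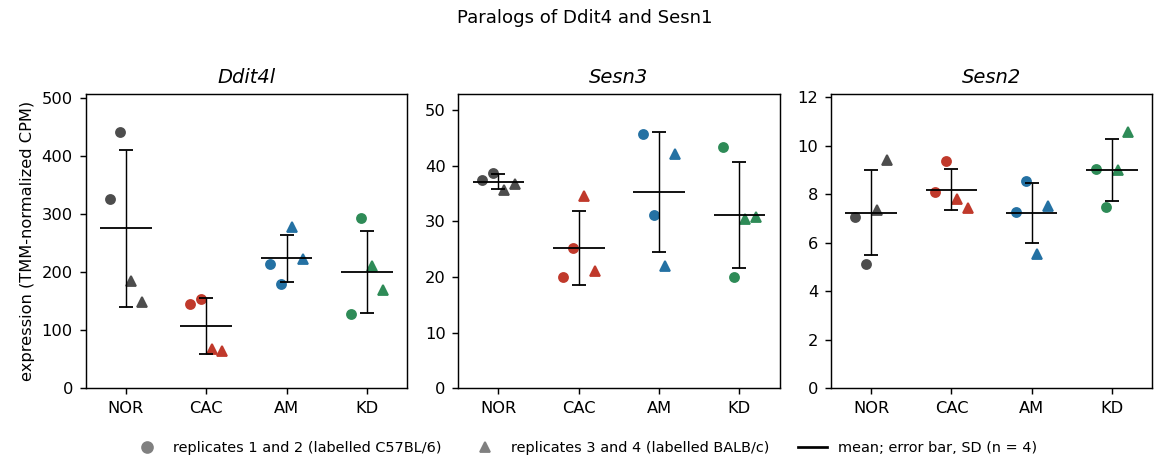
TMM-normalized CPM (linear axis from 0) of Ddit4l, Sesn3, and Sesn2 in each mouse of the 4 groups, with circles for C57BL/6 labels, triangles for BALB/c labels, and lines and error bars for the mean and SD (n = 4). Ddit4l was at 64.9 to 154 CPM in CAC and at 148 to 442 CPM in NOR, and Sesn2 stayed between 5.11 and 10.5 CPM in all 16 mice.

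Among the subunits of the complexes, Mtor (ENSMUSG00000028991, chr4:148448611-148557683, plus strand) held 75.8, 53.7, 56.4, and 65.9 CPM in NOR replicates 1 to 4. In CAC replicates 1 to 4 it held 78.7, 77.2, 79.5, and 108. The groups were separated by a narrow gap between NOR replicate 1 and CAC replicate 2, and CAC replicate 4 stood above the rest. The log2 fold change was 0.45 (SE 0.15, FDR 0.0871 by edgeR), under the fold limit. Rptor (ENSMUSG00000025583, chr11:119602905-119899576, plus strand) was at 65.5 ± 10.3 CPM in NOR and 60.6 ± 4.81 CPM in CAC (n = 4 each, log2 fold change -0.11, SE 0.12, FDR 0.597 by edgeR), and its sign turned with total counts as the only scaling (0.02). Rictor (ENSMUSG00000050310, chr15:6708379-6800401, plus strand) was at 27.6 ± 1.1 and 30.6 ± 3.57 CPM (n = 4 each, log2 fold change 0.15, SE 0.10, FDR 0.385 by edgeR). For both scaffolds the NOR and CAC mice overlapped.

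Deptor (ENSMUSG00000022419, chr15:55112317-55259271, plus strand) was lower in both BALB/c than in both C57BL/6 CAC mice. It held 91.4, 73.1, 84.0, and 93.4 CPM in NOR replicates 1 to 4. In CAC it held 104 and 87.1 CPM in the C57BL/6 mice and 57.4 and 59.4 CPM in the BALB/c mice. The BALB/c CAC mice were below all NOR mice and the C57BL/6 CAC mice were within or above the NOR range. Pooled over both strains the log2 fold change was -0.15 (SE 0.20, FDR 0.681 by edgeR), and the interaction of strain and condition was 0.82 on the log2 scale (FDR 0.810 by edgeR). Of the Deptor exons, 303 bases overlap Gm9920 on the opposite strand, and the strandedness of the counting is not given in the sources used here, so that reads of both cannot be told apart there.

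**Figure D3:**
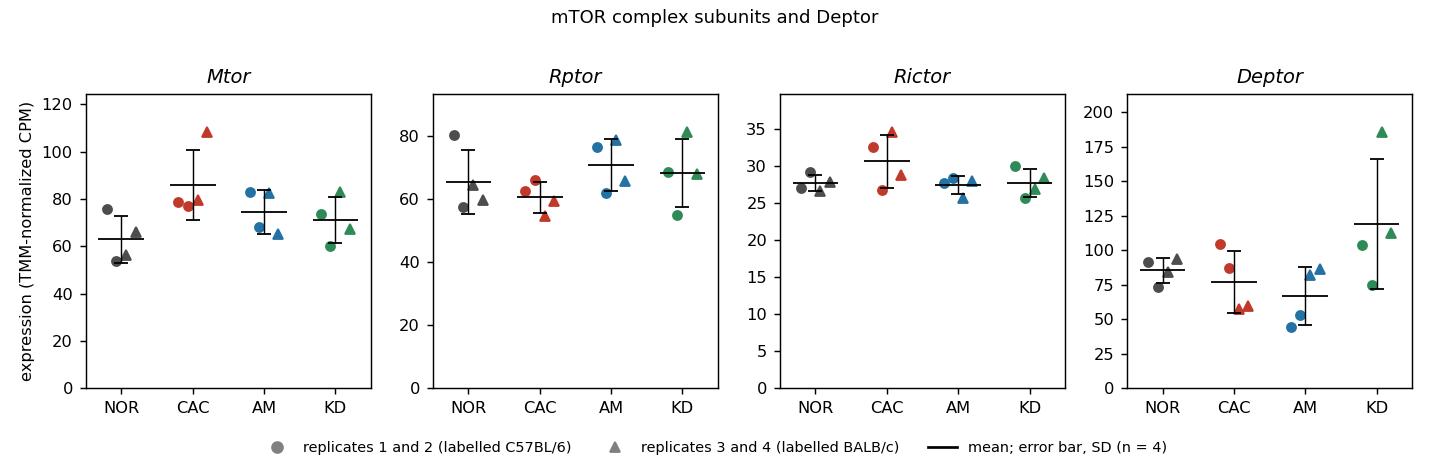
TMM-normalized CPM (linear axis from 0) of Mtor, Rptor, Rictor, and Deptor in each mouse of the 4 groups, with circles for C57BL/6 labels, triangles for BALB/c labels, and lines and error bars for the mean and SD (n = 4). Rictor stayed near 27 to 31 CPM on average in every group, while Deptor ranged from 44.2 CPM in AM replicate 1 to 186 CPM in KD replicate 3.

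In AM relative to CAC, Eif4ebp1 and Sesn1 were downregulated, and no gene of the 10 was upregulated. Over all 14674 genes tested, 3.66% were DEGs, 2.03% were downregulated ones, and 1.63% were upregulated ones. The CAC mice are shared with the comparison above, so the 2 comparisons are not independent. Eif4ebp1 held 80.5, 102, 83.9, and 65.0 CPM in AM replicates 1 to 4, all below the lowest CAC value. Its log2 fold change was -2.08 (SE 0.24, FDR 0.00552 by edgeR). Sesn1 held 49.3, 43.9, 50.3, and 51.2 CPM in the AM replicates, which lay close together and below all CAC mice, with a log2 fold change of -1.53 (SE 0.19, FDR 0.00762 by edgeR). With the mice of either labelled strain alone neither Eif4ebp1 nor Sesn1 was a DEG, where 0% of all genes were.

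Ddit4 held 76.2, 52.1, 44.2, and 231 CPM in AM replicates 1 to 4. The first 3 were in the NOR range and AM replicate 4 was just below the lowest CAC mouse. The log2 fold change of -1.65 (SE 0.52, FDR 0.106 by edgeR) was not a call, and without AM replicate 4 it was -2.47 with an FDR of 0.0104. Ddit4l held 214, 179, 278, and 223 CPM in the AM replicates, above all CAC mice (log2 fold change 1.05, SE 0.31, FDR 0.0937 by edgeR and 0.00980 by DESeq2). DESeq2 called 4 of the 10 genes and 7.63% of all genes in this comparison. The AM and CAC mice did not overlap for 4 of the 10 genes (Eif4ebp1, Sesn1, Ddit4, and Ddit4l) and for 15.7% of all genes, and 4 of the 10 and 21.7% of all genes had an unadjusted p under 0.05 in edgeR. The other genes had log2 fold changes of -0.20 (SE 0.14) for Mtor, 0.23 (SE 0.11) for Rptor, -0.16 (SE 0.11) for Rictor, -0.21 (SE 0.27) for Deptor, -0.18 (SE 0.17) for Sesn2, and 0.49 (SE 0.27) for Sesn3.

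In KD relative to CAC, none of the 10 genes was a DEG, where 0.00685% of 14593 genes were. By unadjusted p, 4 of the 10 genes were under 0.05, and 11.1% of all genes were. Eif4ebp1 held 62.6, 163, 67.1, and 88.1 CPM in KD replicates 1 to 4. All were below the CAC mice and KD replicate 2 was the highest (log2 fold change -1.87, SE 0.36, FDR 0.231 by edgeR). Sesn1 held 34.7, 68.5, 68.3, and 37.0 CPM in the KD replicates, again below all CAC mice (log2 fold change -1.44, SE 0.29, FDR 0.231 by edgeR). The KD and CAC mice did not overlap for 3 of the 10 genes (these 2 and Ddit4) and for 7.00% of all genes. Both Eif4ebp1 and Sesn1 became DEGs with DESeq2 (FDR 5.81e-05 and 0.000971), which called 2.33% of all genes, and with all 16 libraries in 1 edgeR fit (FDR 0.0259 each), which called 0.953% of all genes.

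Ddit4 was spread widely in KD, with 23.7, 258, 108, and 49.8 CPM in replicates 1 to 4. KD replicate 2 lay just under the lowest CAC mouse and the other 3 in the NOR range (log2 fold change -1.55, SE 0.63, FDR 0.418 by edgeR). Ddit4l held 128, 294, 211, and 169 CPM, of which the first overlapped CAC (log2 fold change 0.89, SE 0.37, FDR 0.424 by edgeR). Deptor held 104, 74.6, 186, and 112 CPM, a log2 fold change of 0.62 (SE 0.30, FDR 0.496 by edgeR), and the groups overlapped. The other 5 genes had absolute log2 fold changes of 0.31 or less.

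**Figure D4:**
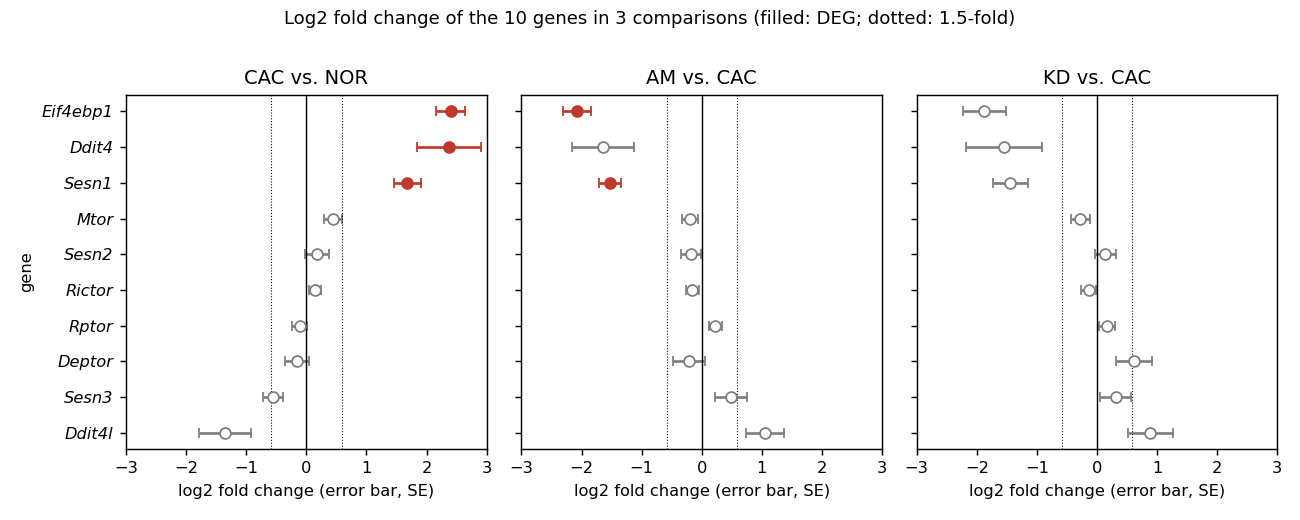
Log2 fold change (points) with its SE (bars) of the 10 genes in the 3 comparisons named above the panels, from edgeR on the 8 libraries of each comparison. Filled points are DEGs and dotted lines mark a fold change of 1.5. Eif4ebp1, Ddit4, and Sesn1 lie at 1.68 to 2.40 in CAC vs. NOR and at -1.44 to -2.08 in the other 2, which share the CAC mice.

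Against NOR, neither the AM nor the KD mice had a DEG among the 10 genes, where 0% of 14738 and of 14748 genes were DEGs. No group pair was separated for any of the 10 genes in these comparisons (4.71% and 2.16% of all genes), and 0 of the 10 had an unadjusted p under 0.05 in edgeR (9.19% and 3.54% of all genes). In AM vs. NOR the log2 fold changes were 0.33 (SE 0.17) for Eif4ebp1, 0.16 (SE 0.13) for Sesn1, and 0.72 (SE 0.68) for Ddit4. In KD vs. NOR they were 0.53 (SE 0.31), 0.25 (SE 0.25), and 0.82 (SE 0.78). With an SE of this size for Ddit4, a 2-fold difference could not have been told from none. Between AM and KD 0 of the 10 genes were DEGs (0% of 14745 genes), and 0 were separated (0.929% of all genes). Deptor was the 1 gene of the 10 with an unadjusted p under 0.05 (1.11% of all genes), with 44.2, 53, 82.2, and 86.5 CPM in AM against 74.6 to 186 CPM in KD (log2 fold change -0.84, SE 0.31, FDR 1.00 by edgeR). The AM and KD mice overlapped, with an exact permutation p of 0.0857. DESeq2 also called 0 of the 10 genes in these 3 comparisons, where it called 0.475% of all genes in AM vs. NOR, 0.210% in KD vs. NOR, and 0.00678% in AM vs. KD.

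The response was also compared between the labelled strains, by an interaction of strain and condition with 2 mice of each strain in a group. For the 10 genes no interaction reached an FDR of 0.05 in edgeR in any of the first 3 comparisons. By unadjusted interaction p, 1 of the 10 (Deptor) was under 0.05 in CAC vs. NOR (4.89% of all genes) and 1 (Deptor) in KD vs. CAC (5.65%). For amiloride (AM vs. CAC), 12.4% of all genes and 3 of the 10 had an unadjusted interaction p under 0.05. Deptor was lower in the 2 C57BL/6 AM mice (44.2 and 53 CPM) than in the C57BL/6 CAC mice and higher in the 2 BALB/c AM mice (82.2 and 86.5 CPM) than in the BALB/c CAC mice, with differences of mean log2 CPM of -0.98 and 0.53. Its interaction was -1.50 on the log2 scale (FDR 0.212 by edgeR). Ddit4l differed from CAC by 0.39 in C57BL/6 and 1.92 in BALB/c mice (interaction -1.51, FDR 0.219 by edgeR), and Eif4ebp1 by -1.52 and -2.58 (interaction 1.07, FDR 0.269 by edgeR). DESeq2 put these 3 interactions past the threshold, with 3.05% of all genes. In CAC vs. NOR, the 3 DEGs had the same sign in both strains, at 2.05 and 2.69 for Eif4ebp1, 1.55 and 1.76 for Sesn1, and 3.58 and 1.81 for Ddit4 in C57BL/6 and BALB/c mice (differences of mean log2 CPM). With the BALB/c mice alone (2 against 2) the FDR of Eif4ebp1 was 0.0854, of Sesn1 0.122, and of Ddit4 0.212 by edgeR, where 0% of all genes were DEGs. With the C57BL/6 mice alone Eif4ebp1 and Sesn1 were DEGs and Ddit4 was not (3.48, FDR 0.0679 by edgeR), where 1.69% of all genes were.

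The wider pathway was read from 7 lists of 76 genes around mTORC1 and mTORC2, which do not hold the 10 genes. In CAC vs. NOR, 5 of the 76 were upregulated and 3 downregulated, against 4.32% and 5.13% of all genes, and their median log2 fold change was 0.08 against 0.01 over all genes. Scaling by total counts alone gave 8 and 2. The upregulated genes were Pik3r1, the regulatory subunit of PI3-kinase (1.61, SE 0.34), Rhebl1, a relative of the mTORC1 activator Rheb (1.2, SE 0.28), Akt1, a kinase of the insulin pathway (0.95, SE 0.17), Lpin1, a phosphatidate phosphatase controlled by mTORC1 (0.73, SE 0.20), and Eif4a1, the eIF4F helicase (0.66, SE 0.12). The downregulated genes were Prkag3, the muscle AMPK subunit (-1.81, SE 0.48), Irs1, the insulin receptor substrate (-1.30, SE 0.22), and Kptn, a scaffold of GATOR1 in the KICSTOR complex (-0.61, SE 0.11). Akt1 and Irs1 were DEGs in all 8 fits without 1 mouse, Eif4a1 in 7, Pik3r1 and Kptn in 6, Rhebl1 and Prkag3 in 3, and Lpin1, whose NOR and CAC mice overlapped, in 2. Rhebl1 was also scarce, with a mean of 1.18 CPM in NOR and 2.73 CPM in CAC. The number of the 76 that were DEGs was 4 without NOR replicate 2 (5.45% of all genes) or NOR replicate 3 (4.91%) and 5 without CAC replicate 3 (8.09%), where 9.45% of all genes were with every mouse.

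By role, 0 of 7 further complex partners such as Mlst8 and Akt1s1 and 0 of 13 Rag, Ragulator, and FLCN genes were DEGs in CAC vs. NOR. Over all genes 9.45% were DEGs in this comparison, with 4.32% upregulated and 5.13% downregulated. Of the TSC-Rheb genes 1 of 5 was upregulated, and 1 of 13 GATOR and amino acid sensor genes was downregulated. Among 18 mTORC1 targets and translation factors, 2 were upregulated, and 9 had an unadjusted p under 0.05 in edgeR (29.1% of all genes). Their median log2 fold change was 0.29, against 0.01 over all genes, and the list was not tested as a set. The sign was positive for 17 of the 18. The exception was Eif4e, the binding partner of 4E-BP1, at 67.0 CPM in CAC and 91.3 CPM in NOR (log2 fold change -0.45, SE 0.09, FDR 0.0180 by edgeR, under the fold limit). In the insulin-Akt list 2 of 12 were upregulated and 1 was downregulated, and in the AMPK list 1 of 8 was downregulated.

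Under amiloride, 3 of the 76 genes were downregulated and none was upregulated, where 2.03% and 1.63% of all genes were. These were Pik3r1 (-1.77, SE 0.16), Akt1 (-0.81, SE 0.18), and Lpin1 (-0.67, SE 0.16). Pik3r1 alone was a DEG without CAC replicate 1 or any 1 of the 4 AM replicates, and with the labelled strain as a covariate. In KD vs. CAC 0 of the 76 were DEGs in edgeR, with 12 at an unadjusted p under 0.05 (11.1% of all genes), and 4 were DEGs with DESeq2 (Akt1, Irs1, Pik3r1, and Prkag3), where DESeq2 called 2.33% of all genes.

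**Figure D5:**
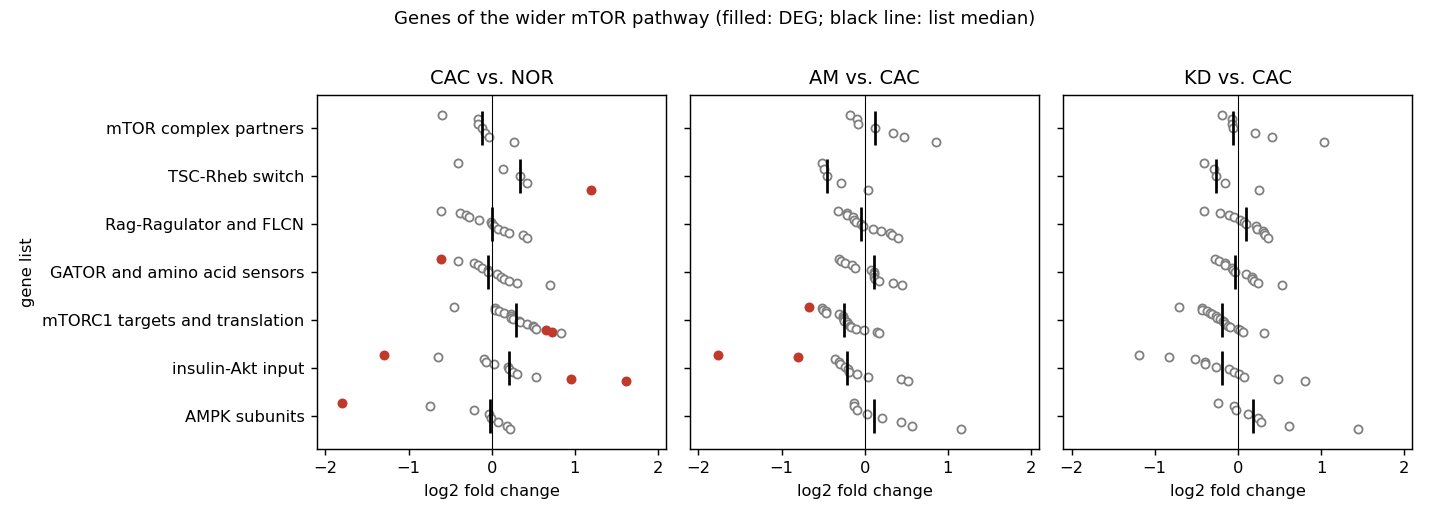
Log2 fold change of each of the 76 genes in the 7 lists of the wider mTOR pathway in the 3 comparisons named above the panels. Points are genes in order of their value within a list, filled points are DEGs, and the black line is the median of the list. Pik3r1 lies furthest right in CAC vs. NOR (1.61) and furthest left in AM vs. CAC (-1.77), and Prkag3 lies furthest left in CAC vs. NOR (-1.81).

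Genes known to respond to the stresses that induce Ddit4 and the sestrins were read from 4 more lists. In CAC vs. NOR, where 4.32% of all genes were upregulated and 5.13% downregulated, 6 of 8 FoxO response genes were upregulated, among them Fbxo32 (atrogin-1, a ubiquitin ligase of muscle atrophy, 2.58, SE 0.27) and Trim63 (MuRF1, 2.50, SE 0.26). Of 8 glucocorticoid response genes 5 were upregulated, among them Fkbp5 (1.96, SE 0.44), Cebpd (2.76, SE 0.40), and the metallothionein Mt2 (4.76, SE 0.70). This count fell to 2 (Cebpd and Mt2) without CAC replicate 1, CAC replicate 2, NOR replicate 1, NOR replicate 2, or NOR replicate 3, where 4.91% to 8.48% of all genes were DEGs. Without each mouse in turn the log2 fold change was 1.72 to 2.51 for Fkbp5, 1.06 to 1.54 for Tsc22d3, and 0.75 to 1.18 for Klf15, the 3 genes lost. The 6 FoxO genes were upregulated with any 1 mouse left out. Of 8 p53 target genes 2 were upregulated (Cdkn1a, 2.93, SE 0.42, and Eda2r, 1.94, SE 0.19) and Ccng1 was downregulated (-0.83, SE 0.16), the latter not without NOR replicate 2. None of 8 tested ATF4 target genes was a DEG, with Atf4 itself at 0.46 (SE 0.10, FDR 0.0238 by edgeR, under the fold limit). Fbxo32, Trim63, Bnip3, Cdkn1a, and Cebpd are in the atrophy list that the study chose on these samples. Relative to CAC, the AM mice had lower expression as DEGs for 6 of 8 FoxO, 4 of 8 glucocorticoid, 1 of 8 p53, and 0 of 8 ATF4 list genes (2.03% of all genes). The p53 count was 2 without CAC replicate 3 or CAC replicate 4, and the ATF4 count 1 (Atf4) without CAC replicate 2. The glucocorticoid count was 3 without AM replicate 1, 2, or 3 or CAC replicate 1 or 2, and 6 without AM replicate 4. Klf15, the gene lost, had log2 fold changes of -0.91 to -1.22 without each mouse in turn. In these fits 1.42% to 3% of all genes were DEGs. In KD vs. CAC 0 genes of the 4 lists were DEGs in edgeR (0.00685% of all genes). The log2 fold changes were -2.21 (SE 0.61) for Trim63, -1.82 (SE 0.62) for Fbxo32, -3.58 (SE 0.75) for Mt2, and -1.75 (SE 0.35) for Fkbp5. The KD and CAC mice did not overlap for these 4, nor for Foxo1, Klf15, Eda2r, or (higher in KD) Ccng1, and for 7.00% of all genes. They overlapped for Cebpd, Tsc22d3, Foxo3, Gadd45a, Bnip3, Cdkn1a, and Atf4 of the same lists. DESeq2 called 3 FoxO, 2 glucocorticoid, 2 p53, and 0 ATF4 list genes lower in KD vs. CAC (2.33% of all genes), and 6, 6, 4, and 0 in AM vs. CAC (7.63%).

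The genes whose log2 CPM followed Eif4ebp1 and Sesn1 most closely over the 16 libraries were sought among 13199 genes with a mean of at least 1 CPM. For Eif4ebp1 these were Cd63 (Pearson's r = 0.963), Psma7 (0.961), Akt1 (0.959), Ccdc136 (0.952), and Zwint (0.951). For Sesn1 they were Zpr1 (0.949), Slc39a14 (0.946), Spsb1 (0.945), Sympk (0.942), and Tmem38b (0.941). These values are descriptions over 16 libraries that share the 4 groups, with the CAC mice at the high end, and the best of many genes were taken.

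Signs of other cells moved with the contrast of CAC and NOR, in which 4.32% of all genes were upregulated and 5.13% downregulated. In CAC vs. NOR, 4 of 6 neutrophil markers (summed 6.03 to 23.3 CPM in NOR, 89.9 to 203 in CAC) and 5 of 5 erythroid markers (1049 to 1359 and 3627 to 8613) were upregulated, and 4 of 6 tendon and cartilage markers were downregulated (645 to 1073 and 189 to 438). Of the endothelial markers 1 of 5 was upregulated, and 0 of the 6 macrophage, 6 adipocyte, 5 Schwann cell, 6 muscle fibre, 6 B cell, and 5 measured T cell markers were DEGs. The summed muscle fibre markers were nonetheless lowest of all 16 libraries in the BALB/c CAC mice (replicates 3 and 4, 52356 and 76481 CPM, against 114526 to 174521 in NOR), which are also the highest CAC mice for Eif4ebp1 and the lowest for Deptor. Amiloride-treated mice differed from CAC in 3 of 6 tendon and cartilage markers, all upregulated (1.63% of all genes). Their part in the values of the 10 genes was not tested. The erythroid sum was highest in KD replicate 2 (21328 CPM) and AM replicate 2 (15864 CPM), above all CAC mice. KD replicate 2 was also the highest KD mouse for Eif4ebp1 (163 CPM), Ddit4 (258 CPM), and Sesn1 (68.5 CPM). AM replicate 2 was the highest AM mouse for Eif4ebp1 (102 CPM) and the lowest for Sesn1 (43.9 CPM). The B cell sum was under 10 CPM in NOR replicate 1, CAC replicates 1 and 4, and KD replicates 2 and 3 and 32.9 to 429 CPM in the other libraries. Without these 5 libraries Eif4ebp1 (2.39, FDR 0.0312 by edgeR) and Sesn1 (1.41, FDR 0.0394) were DEGs in CAC vs. NOR and Ddit4 was not (2.05, FDR 0.170). In that fit 2.63% of all genes were DEGs, against 9.45% with all libraries. For AM vs. CAC without these libraries, Sesn1 was a DEG (-1.27, FDR 0.0467 by edgeR) and Eif4ebp1 was not (-2.07, FDR 0.0511), where 0.119% of all genes were.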

How the data were processed

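Libraries of poly(A) RNA from 16 gastrocnemius muscles were made, sequenced, aligned, and counted by the authors. The deposited table gives raw counts of reads for each gene and FPKM that the authors computed from the counts and 1 length per gene. The submitters' processing notes name fastp, Bowtie2, HISAT2, StringTie 1.3.1, and the builds mm9 and GRCm38 without roles, and the counting tool and strandedness are not given in the sources used here. Totals were 35913190 to 61032708 counts. For pairs of libraries of a group, chi-square per degree of freedom was at least 66.6, so mice differed far beyond counting error.

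The counts of the 2 groups compared (8 libraries) were fitted in edgeR 4.0.16 under R 4.3.3 by its quasi-likelihood test after TMM and filterByExpr (count 10, total 15), with FDRs over all genes tested. NOISeq, the authors' tool, was not used here. Log2 CPM had a prior count of 2. FPKM served for levels between genes and for the ratio of means. Alternatives were RLE, upper-quartile, and total-count scaling, no count filter, DESeq2 1.42.0, limma-voom (3.58.1), strain or replicate number as a term, all 16 libraries, each strain alone, and leaving out each mouse. The fit without the 5 libraries low in B cell markers and the CCAAT and hypoxia motifs were chosen after seeing the data. The fit was tested on simulated data.

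The 10 genes and all lists were chosen with earlier results of these data known. From the lists, the DEGs of the first 3 comparisons and the 3 genes per list with the smallest p in CAC vs. NOR could be named, and for the 2 genes of the 10 with the smallest p the 5 most correlated genes. Coordinates, transcript lengths, and 31-base words are from GENCODE M21 (GRCm38), and promoters from RefSeq (GRCm38.p6).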

Additional observations from a re-analysis of the deposited data

Results flagged for a closer look

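Deptor differed from CAC in opposite directions in the 2 labelled strains of AM mice, with both C57BL/6 AM mice below both C57BL/6 CAC mice and both BALB/c AM mice above both BALB/c CAC mice. The interaction of strain and condition was -1.50 on the log2 scale (FDR 0.212 in edgeR's quasi-likelihood test), which failed the correction over all genes. The 2 strains carried different tumor lines and may differ in sex, which cannot be told apart here.

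Mtor in CAC replicate 4 was at 108 CPM, set apart from the other 3 CAC mice (77.2 to 79.5 CPM). The gap to the nearest of them was 0.924 of the range of the group, above Dixon's 95% critical value for 4 samples. Of 40 sets of 4 values checked (10 genes in 4 groups) this was the only 1 beyond the limit, and a few such sets are due by chance alone.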

How the results depend on the processing

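The upregulation of Eif4ebp1 and Sesn1 in CAC vs. NOR kept its sign and its call in 11 of 12 alternatives each and in all 8 fits without 1 mouse, and was lost with the BALB/c mice alone. DEGs among the 10 genes in CAC vs. NOR were 0 with the BALB/c mice alone (0% of all genes, with Eif4ebp1 at 2.65 and Sesn1 at 1.77) and 2 to 4 without each mouse in turn (4.91% to 8.57% of all genes). For AM vs. CAC they were 4 with DESeq2 (7.63% of all genes), 0 with each strain alone (0%), 1 without the 5 libraries low in B cell markers (0.119%), and 2 to 3 without each mouse (1.42% to 3%). The log2 fold changes were -1.50 and -2.58 for Eif4ebp1 and -1.31 and -1.72 for Sesn1 with the C57BL/6 and the BALB/c mice alone, and -2.07 and -1.27 without the 5 libraries. In KD vs. CAC 2 of the 10 genes were DEGs with DESeq2 (2.33% of all genes) and 2 with all 16 libraries (0.953%). Of the 76 wider pathway genes, DEGs in CAC vs. NOR were 1 with C57BL/6 alone (1.69% of all genes) and 0 with BALB/c alone (0%). Without the 5 libraries there was 1 (2.63%), and without each mouse 4 to 8 (4.91% to 8.57%). For AM vs. CAC these were 1 with strain as a covariate (2.31%) and 0 in each strain alone (0%). They were 1 without the 5 libraries (0.119%) and 1 to 2 without each mouse (1.42% to 3%). In KD vs. CAC they were 4 with DESeq2 (2.33%) and 1 with all 16 libraries (0.953%). DESeq2 put 3 strain interactions of the 10 genes past the threshold in AM vs. CAC (3.05% of all genes). Strain fits and fits without the 5 libraries rest on fewer mice, and the cause of the other shifts was not tested.

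The replicate block left 0 of the 10 and 0 of the 76 genes called in AM vs. CAC, where 0% of all genes were called. The log2 fold changes were -2.05 for Eif4ebp1 (FDR 0.106 by edgeR) and -1.49 for Sesn1 (FDR 0.0737). Replicate numbers did not pair the mice in AM vs. CAC or KD vs. CAC. Deviations of same-numbered mice there correlated at -0.520 to 0.022 and at -0.664 to -0.289. In CAC vs. NOR the deviations correlated at -0.216 to 0.632, with 3 of 4 over 0.1. In that comparison 1 of 4 CAC mice was closest to the NOR mouse of its own number. In AM vs. KD the deviations correlated at 0.0806 to 0.564, with 3 of 4 over 0.1 and 2 of 4 AM mice closest to the KD mouse of their own number.

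Signs turned only for values that were not calls. In CAC vs. NOR these were Rptor (0.0167 with total counts and 0.0166 as the FPKM ratio), Deptor (0.26) and Tti1 (0.0548) with C57BL/6 alone, and Sesn2 (-0.14) with BALB/c alone. For AM vs. CAC these were Ccng1 (-0.18, C57BL/6 alone) and Deptor (0.52, BALB/c alone). In KD vs. CAC these were Rptor (-0.0305), Deptor (-0.0765), and Sesn2 (-0.0600) with C57BL/6 alone and Rhebl1 (0.0800) with BALB/c alone. Ddit4 turned in AM vs. NOR without AM replicate 4 (range without each mouse -0.0873 to 1.37) and in KD vs. NOR with BALB/c alone (-0.24), without the 5 libraries (-0.84), and without KD replicate 2 (range without each mouse -0.0412 to 1.48), and Sesn1 in KD vs. NOR without the 5 libraries (-0.29). Total counts moved the median log2 fold change of all genes to 0.14 in CAC vs. NOR (959 upregulated and 619 downregulated genes, in place of 633 and 753) and to -0.11 in KD vs. CAC. Upper-quartile scaling gave 279 and 232 in place of 239 and 298 in AM vs. CAC.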
